A study of Homo sapiens with 44 samples.

Results

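FOXM1, MYBL1, MYBL2, LIN9, LIN37, LIN52 and LIN54 encode regulators of mitotic transcription, and their rows were taken by symbol from the deposited table of gene counts. All 7 were among its 23367 gene rows, and all 7 passed the filter on low counts, which left 14534 genes for testing. The cells were IMR5/75, a MYCN-amplified line from human neuroblastoma, and every library came from cells carrying an shRNA against MYCN that tetracycline induces. Cells were held at the border of G1 and S with thymidine for 18 h and washed free of it, and RNA was sequenced at 0, 3, 6, 8, 10, 12, 14, 16, 18, 20 and 22 h. The Tet plus arm received tetracycline and the Tet minus arm did not, with 2 biological replicates for each arm and time, 44 libraries in all. Tetracycline was not given to cells without the hairpin or with a control hairpin, so the drug and other targets of the hairpin cannot be told apart from lowered MYCN. In bulk RNA, fewer cells in a phase and less RNA per cell cannot be told apart either.

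LIN9, LIN37, LIN52 and LIN54 form the MuvB core together with RBBP4. In resting and early G1 cells the core joins RBL1 or RBL2, E2F4 or E2F5 and a DP protein (TFDP1 or TFDP2) as the DREAM complex, which represses cell cycle genes. After S phase begins the core binds MYBL2 (B-MYB) instead and then recruits the forkhead factor FOXM1, and these complexes activate the genes of G2 and mitosis. LIN54 is the subunit that contacts DNA, at the cell cycle homology region (CHR) of mitotic promoters. MYBL2 is itself a target of E2F factors and DREAM, and MYBL1 (A-MYB) is a relative best known from male germ cells.

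RefSeq promoter windows (GRCh38.p14, 250 bases before to 50 after each annotated start) were matched by symbol for 5 of the 7 genes, with 9 starts in all. They are shown because the regulators are themselves candidates for E2F and CHR control. The letters TTTGAA (CHR), GGCGGGA (E2F) and CCAAT were searched on both strands, and the 3 sets of letters do not overlap in the windows shown. TTTGAA stood in 4 of the 9 windows (3 of the 5 genes) and in 15.2% of 35116 windows of the same length. The LIN54 windows overlap and hold the same TTTGAA and the same GGCGGGA, each counted in both. GGCGGGA stood in 6 of the 9 windows and in 15.4% of all, and CCAAT in 2 of the 9 windows and in 34.6% of all. Below, the 250 bases before the MYBL2 start are followed by 30-base stretches of LIN9, LIN54, LIN52 and LIN37, each 5′ to 3′ on the strand of its gene, with a match or its reverse complement in capitals. A match is a description of letters and not a site of binding.
MYBL2, plus strand, chr20:43666864-43667113, GGCGGGA from position -39: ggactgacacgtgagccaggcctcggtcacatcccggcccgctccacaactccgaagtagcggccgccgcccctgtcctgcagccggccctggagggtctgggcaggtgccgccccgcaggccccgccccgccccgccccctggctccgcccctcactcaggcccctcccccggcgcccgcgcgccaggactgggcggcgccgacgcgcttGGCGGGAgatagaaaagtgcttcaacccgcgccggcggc
LIN9, minus strand, chr1:226309150-226309179, TTTGAA from position -3: cggcgggcagccTTTGAAaaagcggcgcgg
LIN54, minus strand, chr4:83010906-83010935, TTTGAA from position -100: ggcccttgtgcgTTTGAAggttggcggggc
LIN54, minus strand, chr4:83010888-83010917, GGCGGGA from position -82: ggttggcggggcGGCGGGAggcttccccgg
LIN52, plus strand, chr14:74084921-74084950, GGCGGGA as its complement from position -23: ggaacctcgtttTCCCGCCgacggttggcc
LIN37, plus strand, chr19:35748620-35748649, TTTGAA from position -182: acgaagctcatcTTTGAActgtccccgcct
Positions count back from each start, so that -1 is the base before it. LIN9 has 3 annotated starts, LIN54 has 2 and LIN37 has 2. In the order listed in RefSeq, positions are given for start 3 of LIN9, start 1 of LIN54 and start 2 of LIN37.

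Gene counts per library ranged from about 10906500 to about 25313500. MYCN, the gene the hairpin targets, averaged 1036 ± 86.6 CPM for Tet plus and 1257 ± 142 CPM for Tet minus libraries at 0 to 14 h (SD, n = 14 each), where CPM is counts-per-million scaled by TMM library sizes. Its log2 fold change, Tet plus over Tet minus, was -0.27 ± 0.0460 (SE, adjusted p = 2.71e-05, edgeR quasi-likelihood test with Benjamini-Hochberg adjustment over all genes tested) at 0 to 14 h and -0.26 ± 0.0608 (adjusted p = 0.000787) at 16 to 22 h, while ERCC scaling gave -0.15 (adjusted p = 1.00) and 4.12. By single times MYCN passed at 12 h (-0.45) and 16 h (-0.59), and was at -0.08 at 0 h and -0.03 at 22 h. The call at 12 h was lost whichever of the 4 libraries of that time was left out, with values from -0.47 to -0.41. The labels of the late Tet plus libraries (16 to 22 h) give other lane numbers and another form of title than those of the late Tet minus libraries, so arm and lane set cannot be told apart there. ERCC spike-in transcripts made up 0.0543% to 0.376% of counts in these 8 Tet plus libraries, against 1.13% to 3.43% in the 8 Tet minus libraries, and small nucleolar RNAs 0.935% to 2.41% against 0.289% to 0.713%. The part of these differences in the results at 16 to 22 h was not tested. Markers of epithelial cells summed to 0.540 to 2.58 CPM and those of blood cells to 0.239 to 1.45 CPM over all libraries, while 9 of 10 mesenchymal markers passed the filter on low counts and summed to 707 to 1668 CPM. Of 12 noradrenergic neuroblastoma markers 10 passed the filter, and they summed to 1136 to 1837 CPM in Tet plus against 866 to 1404 CPM in Tet minus libraries at 0 to 14 h, and to 1523 to 1950 CPM in Tet plus against 978 to 1509 CPM in Tet minus libraries at 16 to 22 h. In both windows 6 of these 10 were higher in Tet plus cells on the TMM scale. So was 1 of 2 epithelial markers tested in both windows. Of 2 blood cell markers tested 0 were higher at 0 to 14 h and 2 at 16 to 22 h. Of 9 mesenchymal markers tested 2 were higher at 0 to 14 h, while 1 was higher and 1 lower at 16 to 22 h. Of all genes tested 20.1% were higher at 0 to 14 h and 26.3% at 16 to 22 h. The part of these markers in the results was not tested.

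At 0 to 14 h MYBL2 was the regulator that differed between the arms. It fell by 0.36 on the log2 scale in Tet plus cells, while FOXM1, MYBL1 and the 4 LIN genes did not pass the threshold. The threshold was an adjusted p of 0.05 on the mean difference over the 7 times. Thus 1 of the 7 regulators was lower and 0 were higher, where 21.3% of all genes tested were lower and 20.1% higher. At an unadjusted p under 0.05 the count was 2, MYBL2 and LIN52, and DESeq2 called 1. With the replicate number as a block, 2 of 7 passed, MYBL2 and LIN52, with LIN52 at 0.13 ± 0.0549 (adjusted p = 0.0494). How many of all genes tested passed with it is not given here.

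At 16 to 22 h, with the confounding given above, 5 of the 7 regulators were lower in Tet plus cells and 0 were higher, where 26.8% of all genes tested were lower and 26.3% higher. FOXM1 and MYBL2 had the largest falls, 1.05 and 0.86 on the log2 scale. LIN54 fell by 0.45, LIN52 by 0.31 and LIN9 by 0.30. These directions are relative to all genes: with ERCC counts as the scale, the median of all genes tested moved to 4.40 (0.13 at 0 to 14 h) and all 7 regulators came out higher in Tet plus cells, FOXM1 at 3.37 and MYBL2 at 3.55. Less that median, FOXM1 stood at -1.04, MYBL2 at -0.86 and LIN54 at -0.44 under ERCC scaling. The calls of these 5 genes held without any of the 16 libraries in turn.

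**Figure D1:**
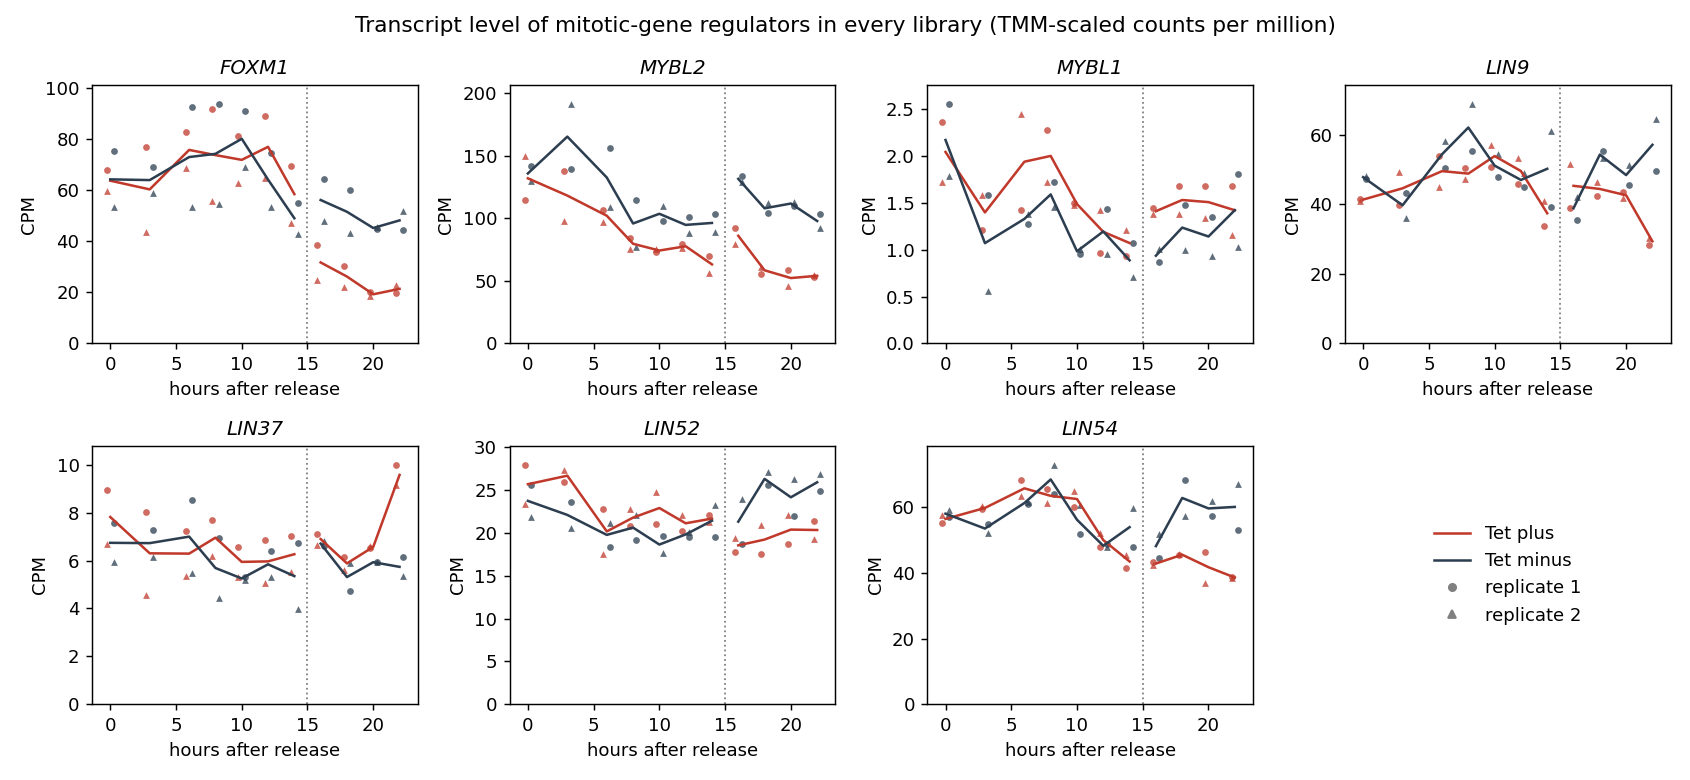
Level of each regulator in TMM-scaled CPM (counts-per-million, vertical axes from 0) against hours after release in each library, with Tet plus in red and Tet minus in dark blue, circles for replicate 1, triangles for replicate 2 and lines through the means of 2 libraries. The dotted line separates the times at which the arms differ in lane set; to its right FOXM1 lies between 18.5 and 38.7 CPM in Tet plus and between 43.2 and 64.4 CPM in Tet minus libraries, an order that turns round under ERCC scaling.

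FOXM1, the forkhead activator of G2 and mitotic genes, had no arm difference that the test could detect up to 14 h. In this window the 14 Tet plus libraries had a lowest value of 43.6, a median of 68.4 and a highest of 91.9 CPM. The 14 Tet minus libraries had 43.1, 64.0 and 93.9 CPM. The replicates of the arms overlapped at each of the 7 times, and the log2 fold change was 0.04 ± 0.119 (adjusted p = 0.797). The values followed the replicate number: replicate 1 exceeded replicate 2 at 7 of 7 times in either arm, by a median log2 ratio of 0.46 in Tet plus and 0.48 in Tet minus libraries.

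At the later times the arms no longer overlapped in FOXM1. How many of all genes tested separate in this way at a time was not computed. With 2 libraries per arm and time, separation is only a description, here and for the other regulators. At 16 h the level was 38.7 and 24.8 CPM in Tet plus against 64.4 and 48.2 CPM in Tet minus libraries. At 18 h it was 30.5 and 22.0 CPM in Tet plus against 60.1 and 43.2 CPM in Tet minus libraries. At 20 h the Tet plus libraries had 20.1 and 18.5 CPM and the Tet minus libraries 45.1 and 45.5 CPM. Every Tet plus value lay below every Tet minus value of its time. At 22 h the values were 19.8 and 23.0 CPM in Tet plus against 44.5 and 52.1 CPM in Tet minus libraries. Over these 4 times the log2 fold change was -1.05 ± 0.164 (adjusted p = 5.71e-06), or 3.37 with ERCC scaling. By single times FOXM1 passed at 18 h, with -0.98 ± 0.327 and an adjusted p of 0.0366. It also passed at 20 h with -1.23 ± 0.331 (adjusted p = 0.00756), and at 22 h with -1.17 ± 0.331 (adjusted p = 0.00916). At 16 h FOXM1 stood at -0.83 ± 0.323 (adjusted p = 0.0576), and at -0.84 ± 0.188 (adjusted p = 0.000758) with the replicate block. With ERCC scaling the single-time values of FOXM1 lay above 0, from 3.07 at 20 h to 3.75 at 16 h.

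In the fit without the replicate block the single-time calls of FOXM1 rest on few libraries. Leaving out a library of the time in turn moved the adjusted p at 18 h to between 0.0484 and 0.252, and the call was lost without Tet plus replicate 1, Tet plus replicate 2 or Tet minus replicate 1. At 20 h it was lost without Tet plus replicate 2 (adjusted p = 0.0580), and at 22 h without Tet plus replicate 1 (adjusted p = 0.0802) or Tet minus replicate 2.

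MYBL2, the MYB protein that binds MuvB in S phase, was the most abundant of the 7 per length and the only regulator lower in Tet plus cells in both windows on the TMM scale; with ERCC scaling it was at -0.22 (adjusted p = 1.00), or -0.35 less the median of all genes, at 0 to 14 h and higher, at 3.55, at 16 to 22 h. At 0 h its level was 114 and 150 CPM in Tet plus against 142 and 130 CPM in Tet minus libraries. At 3 h it was 138 and 98.3 CPM in Tet plus against 139 and 191 CPM in Tet minus libraries. The arms overlapped at 0 h and separated narrowly at 3 h. At 6 h the Tet plus libraries had 107 and 97.3 CPM and the Tet minus libraries 157 and 109 CPM. At 8 h there were 84.1 and 75.4 CPM for Tet plus and 115 and 77.0 CPM for Tet minus libraries. These ranges overlapped again at 8 h. At 10 h the values were 73.1 and 75.6 CPM in Tet plus against 97.9 and 110 CPM in Tet minus libraries. At 12 h they were 79.5 and 76.0 CPM in Tet plus against 101 and 88.4 CPM in Tet minus libraries. From 10 h on every Tet plus value lay below both Tet minus values of its time. At 14 h the levels were 70.1 and 56.4 CPM in Tet plus against 103 and 89.3 CPM in Tet minus libraries.

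The mean MYBL2 difference at 0 to 14 h was -0.36 ± 0.0718 on the log2 scale (adjusted p = 0.000198), and the call held without any of the 28 libraries in turn. MYBL2 did not pass at 14 h alone (-0.61 ± 0.191, adjusted p = 0.0604), but passed there with the replicate block (-0.61 ± 0.173, adjusted p = 0.0153). From 16 to 22 h MYBL2 ranged from 46.2 to 92.5 CPM in the 8 Tet plus libraries (median 57.0), against 92.1 to 134 CPM in the 8 Tet minus libraries (median 111). The arms were apart at each of the 4 times. The mean difference was -0.86 ± 0.0963 (adjusted p = 2.81e-08), or 3.55 with ERCC scaling, and each time passed on the TMM scale, from -0.61 ± 0.191 (adjusted p = 0.0180) at 16 h to -1.10 ± 0.194 (adjusted p = 0.000142) at 20 h. At 16 h the adjusted p moved to between 0.0364 and 0.156 without a library of that time, and the call was lost without Tet plus replicate 2 or either Tet minus replicate.

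MYBL1, the germ-cell relative of MYBL2, was near the lower limit of what these libraries can measure, with 10 to 59 counts per library. It had a lowest level of 0.928, a median of 1.48 and a highest of 2.44 CPM in Tet plus, against 0.555, 1.33 and 2.55 CPM in Tet minus libraries at 0 to 14 h. At 6, 8 and 10 h both Tet plus values lay above both Tet minus values, and at the other 4 times the arms overlapped. The share of all genes tested that separate in this way was not computed. The log2 fold change was 0.29 ± 0.142 (adjusted p = 0.106) at 0 to 14 h and 0.33 ± 0.199 (adjusted p = 0.170) at 16 to 22 h. Without Tet minus replicate 1 at 3 h the earlier value passed, at 0.43 (adjusted p = 0.0128).

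LIN9, a scaffold of the MuvB core, did not pass up to 14 h, and both Tet plus values lay below both Tet minus values at 0 and 8 h with overlap at the other 5 times. It had a lowest level of 33.9, a median of 46.5 and a highest of 57.0 CPM in Tet plus, against 36.1, 48.7 and 68.9 CPM in Tet minus libraries, and a log2 fold change of -0.11 ± 0.0664 (adjusted p = 0.176). With Tet minus replicate 1 at 14 h left out this passed, at -0.15 (adjusted p = 0.0418). The late difference lay mostly at 22 h, with 28.4 and 30.4 CPM in Tet plus against 49.7 and 64.6 CPM in Tet minus libraries. That time gave -0.96 ± 0.180 (adjusted p = 0.000235; 3.54 with ERCC scaling), while 16 h gave 0.22 ± 0.177 (adjusted p = 0.385), and the mean over 16 to 22 h was -0.30 ± 0.0888 (adjusted p = 0.00554), or 4.08 with ERCC scaling. With the replicate block LIN9 also passed at 14 h (-0.42 ± 0.147, adjusted p = 0.0494).

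LIN54, the DNA-binding subunit, had no mean arm difference that the test could detect over 0 to 14 h, with a log2 fold change of 0.00 ± 0.0470 (adjusted p = 0.997). That mean covers both signs: Tet plus lay above Tet minus without overlap at 3 h (0.16) and 6 h (0.10), and below it at 14 h (-0.31, adjusted p = 0.152). Its level was 41.6 to 68.2 CPM in Tet plus (median 59.8) and 47.8 to 73.0 CPM in Tet minus libraries (median 58.1). At 18 h it was 45.3 and 45.8 CPM in Tet plus against 68.4 and 57.3 CPM in Tet minus libraries. At 22 h it was 38.7 and 38.5 CPM in Tet plus against 53.1 and 67.1 CPM in Tet minus libraries. Tet plus lay below Tet minus at all 4 of the later times without overlap, narrowly at 16 h (43.2 and 42.5 against 44.6 and 51.8 CPM). The mean difference at 16 to 22 h was -0.45 ± 0.0628 (adjusted p = 1.25e-06), or 3.96 with ERCC scaling, and 18, 20 and 22 h passed, the last at -0.64 ± 0.126 (adjusted p = 0.000407). Leaving out a library of the time moved LIN54 at 18 h to between -0.59 and -0.33. That call was lost without either Tet plus replicate or without Tet minus replicate 1. At 20 h the value moved to between -0.69 and -0.36, and the call was lost without Tet plus replicate 2.

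LIN52, the subunit that is phosphorylated by DYRK1A when DREAM assembles, lay on opposite sides of 0 in the earlier and the later times. It had a median of 22.4 CPM in Tet plus (17.6 to 28.0) and 20.4 CPM in Tet minus libraries (17.7 to 25.6) at 0 to 14 h, a difference of 0.13 ± 0.0583 (adjusted p = 0.0798) that passed without Tet plus replicate 2 at 6 h (0.16, adjusted p = 0.0368). At 16 to 22 h the medians were 19.3 CPM in Tet plus (17.5 to 22.1) and 25.2 CPM in Tet minus libraries (18.7 to 27.1), a difference of -0.31 ± 0.0780 (adjusted p = 0.00143) that turned to 4.07 with ERCC scaling. At 18 h alone it was at -0.45 ± 0.156 (adjusted p = 0.0431), a call lost whichever of the 4 libraries of that time was left out (adjusted p between 0.0531 and 0.317). Whether the earlier and the later difference of LIN52 differ was not tested.

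LIN37, the MuvB subunit needed for repression by DREAM, was low in counts (64 to 224 per library). Its level was 4.57 to 8.93 CPM in Tet plus and 3.97 to 8.51 CPM in Tet minus libraries at 0 to 14 h (0.10 ± 0.103, adjusted p = 0.455), and replicate 1 exceeded replicate 2 at 7 of 7 times in either arm. At 22 h it was 10.0 and 9.15 CPM in Tet plus against 6.14 and 5.34 CPM in Tet minus libraries. This was the 1 call above 0 among the single times without the replicate block on the TMM scale (0.74 ± 0.275, adjusted p = 0.0450), and it was lost whichever of the 4 libraries of that time was left out (adjusted p between 0.0774 and 0.227). Over 16 to 22 h LIN37 was at 0.27 ± 0.139 (adjusted p = 0.109) and passed with the replicate block, at 0.25 ± 0.102 (adjusted p = 0.0305).

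Taking each time alone, 0 of the 49 differences of a regulator at 0 to 14 h passed the edgeR test, 5 had an unadjusted p under 0.05, DESeq2 called 1 (MYBL2 at 14 h) and the fit with the replicate block 2. The share of all genes tested that passed in either direction was 1.57% at 0 h, 2.72% at 3 h, 7.09% at 6 h, 3.43% at 8 h, 3.4% at 10 h, 4.19% at 12 h and 5.37% at 14 h. At the later times 12 of 28 differences were lower and 1 was higher, while with ERCC scaling each of the 7 regulators was higher at each of these times. There the share of all genes was 27% at 16 h, where 1 regulator passed, and 18.7% at 18 h, where 4 passed. It was 23.9% at 20 h, where 3 passed, and 28.4% at 22 h, where 5 passed.

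**Figure D2:**
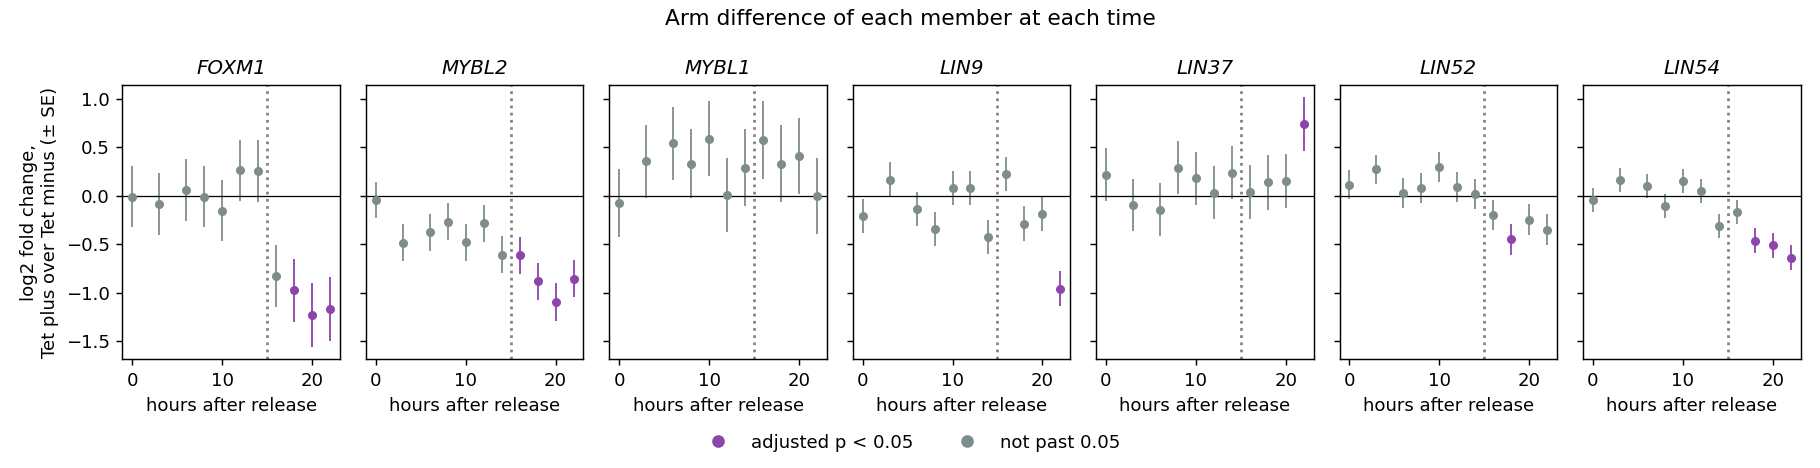
Log2 fold change (Tet plus over Tet minus, points, with bars of ± SE) of each regulator against hours after release, from 2 libraries per arm and time; purple points passed an adjusted p of 0.05 and grey points did not. MYBL2 is at -0.04, -0.48, -0.38, -0.27, -0.48, -0.29 and -0.61 at 0, 3, 6, 8, 10, 12 and 14 h, without a steady fall. The MYBL2 difference at 12 and 14 h minus that at 0, 3 and 6 h was -0.15 ± 0.173 and did not pass. FOXM1 goes below -0.8 after the dotted line, where arms and lane sets coincide and ERCC scaling turns the sign of all 7 genes positive.

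No regulator had an arm difference that depended on the time from 0 to 14 h by the edgeR F-test over the 7 times: 0 of 7 passed, 0 had an unadjusted p under 0.05 and DESeq2 called 0, where 0.0138% of all genes tested passed. The difference at 12 and 14 h minus that at 0, 3 and 6 h likewise passed for 0 of 7 (0 at an unadjusted p under 0.05, and 0 with DESeq2), where 0.0619% of all genes passed as lower and 0.00688% as higher. FOXM1 had the widest such value, 0.27 ± 0.288.

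MYBL2 changed along the course in both arms by the edgeR F-test over the 7 times, which differ in lane set. Within lane sets no MYBL2 step up to 14 h passed. At 6 against 0 h it was -0.37 ± 0.190 in Tet plus (adjusted p = 0.343) and -0.04 ± 0.189 in Tet minus cells (adjusted p = 0.985). At 12 against 8 h it was -0.04 ± 0.190 in Tet plus and -0.02 ± 0.190 in Tet minus cells. The part of the lanes in this course was not tested. In Tet plus cells 2 of 7 changed over the 7 times from 0 to 14 h, MYBL2 (adjusted p = 0.00111) and LIN54 (adjusted p = 0.0104), where 10.4% of all genes tested did. In Tet minus cells 1 of 7 changed, MYBL2 (adjusted p = 0.00801), where 14.5% of all genes did. Mean MYBL2 was highest at 0 h in Tet plus (132 CPM) and at 3 h in Tet minus cells (165 CPM), and lowest at 14 h in Tet plus (63.3 CPM) and at 12 h in Tet minus cells (94.8 CPM). LIN54 was highest at 6 h in Tet plus (65.8 CPM) and at 8 h in Tet minus cells (68.5 CPM). FOXM1 had its highest mean at 12 h in Tet plus (77.1 CPM) and at 10 h in Tet minus cells (80.3 CPM), and its lowest at 14 h in both, 58.6 CPM for Tet plus and 49.1 CPM for Tet minus cells. Neither FOXM1 course passed (adjusted p = 0.949 in Tet plus and 0.699 in Tet minus cells).

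Lane numbers also change along the course. With the replicate block 4 regulators passed in Tet minus cells, MYBL1 (adjusted p = 0.0336), MYBL2 (0.000759), LIN9 (0.0319) and LIN54 (0.0271). The share of all genes that passed with this block is not given here. The LIN54 course in Tet plus cells was lost without Tet plus replicate 1 at 14 h (adjusted p = 0.0955), and the MYBL2 course in Tet minus cells without Tet minus replicate 2 at 3 h (adjusted p = 0.0870). Without Tet minus replicate 2 at 14 h LIN54 passed in Tet minus cells as well (adjusted p = 0.0358). Both LIN9 and MYBL1 passed there without a library too, LIN9 without replicate 1 at 14 h (adjusted p = 0.0450) or replicate 2 at 14 h, and MYBL1 without replicate 1 at 3 h (adjusted p = 0.0210).

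Within sets of times that share lane numbers, 3 of 42 steps of a regulator passed, all downward. LIN54 fell by 0.50 ± 0.124 (adjusted p = 0.0473) at 12 h relative to 8 h in Tet minus cells, with 48.8 and 47.8 CPM at 12 h against 64.0 and 73.0 CPM at 8 h. In Tet plus cells the same step of LIN54 was -0.34 ± 0.124 (adjusted p = 0.511), with 47.8 and 52.3 CPM at 12 h against 65.6 and 61.4 CPM at 8 h. LIN54 was thus lower at 12 h than at 8 h in each arm and replicate. In Tet plus cells MYBL2 fell by 0.67 ± 0.193 (adjusted p = 0.0336) and LIN9 by 0.63 ± 0.180 (adjusted p = 0.0324) at 22 h relative to 16 h. MYBL2 had 53.3 and 54.9 CPM at 22 h against 92.5 and 79.7 CPM at 16 h there.

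All genes tested changed in these steps as follows, in either direction. At 6 against 0 h, 2.5% changed in Tet plus and 2.35% in Tet minus cells, and 0 regulators in either (1 and 0 at an unadjusted p under 0.05, and 0 with DESeq2). At 12 against 8 h, 0.22% changed in Tet plus cells, with 0 regulators (1 at an unadjusted p under 0.05, LIN54, and 0 with DESeq2), and 0.833% in Tet minus cells, with 1 regulator. At 22 against 16 h in Tet plus cells 7.24% changed, with 2 regulators. At 22 against 14 h in Tet minus cells 0.44% changed, with 0 regulators (0 at an unadjusted p under 0.05, and 0 with DESeq2). Each of the 3 calls was lost without some library of its step: the adjusted p of the LIN54 step was 0.0610 to 0.482, that of the MYBL2 step 0.104 to 0.183 and that of the LIN9 step 0.0235 to 0.422, which was lost without Tet plus replicate 2 at 16 h or either replicate at 22 h.

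Levels can be compared between genes only per length. Divided by the union of exon lengths in GENCODE, MYBL2 stood highest among the 7 at 0 to 14 h, with 33.3 CPM per kilobase in Tet plus and 42.4 in Tet minus cells. FOXM1 followed with 18.9 CPM per kilobase in Tet plus and 18.4 in Tet minus cells. LIN9 (11.8 and 12.8), LIN54 (9.16 and 9.12), LIN52 (8.24 and 7.52) and LIN37 (5.66 and 5.29) lay below, each given for Tet plus and then for Tet minus cells in the same unit. MYBL1 had 0.303 CPM per kilobase in Tet plus and 0.251 in Tet minus cells. The annotation is of another build than the counts, and exon unions need not match the transcripts of these cells.

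Of the 7 other subunits of DREAM, RBBP4, RBL1, RBL2, E2F4, E2F5, TFDP1 and TFDP2, 3 were lower and 2 higher in Tet plus cells at 0 to 14 h, where 21.3% of all genes tested were lower and 20.1% higher. Their median was -0.14, where that of all genes tested was 0.01. E2F5, a repressor E2F, averaged 21.6 ± 3.80 CPM for Tet plus and 43.8 ± 7.92 CPM for Tet minus libraries (SD, n = 14 each), a log2 fold change of -1.02 ± 0.0696 (adjusted p = 1.08e-11). E2F4, the E2F most often found in DREAM, was at -0.23 and TFDP1 at -0.18. RBL2 (p130), the pocket protein of resting cells, was at 0.26 ± 0.0559 (adjusted p = 0.000575) and TFDP2 at 0.18. RBBP4 (-0.09, adjusted p = 0.212) and RBL1 (-0.14, adjusted p = 0.106) did not pass. With the replicate block 4 partners were lower, and 5 with the block within each time, when all 7 passed. Shares of all genes with these blocks are not given here. Later, at 16 to 22 h, 5 partners were lower and TFDP2 higher (median -0.61), where 26.8% of all genes were lower and 26.3% higher, and RBL2 was at 0.08 (adjusted p = 0.390); under ERCC scaling all 7 were higher at 16 to 22 h and 0 passed at 0 to 14 h. RBL2 averaged 81.9 ± 5.53 CPM for Tet plus and 78.0 ± 10.5 CPM for Tet minus libraries at these times (SD, n = 8 each).

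**Figure D3:**
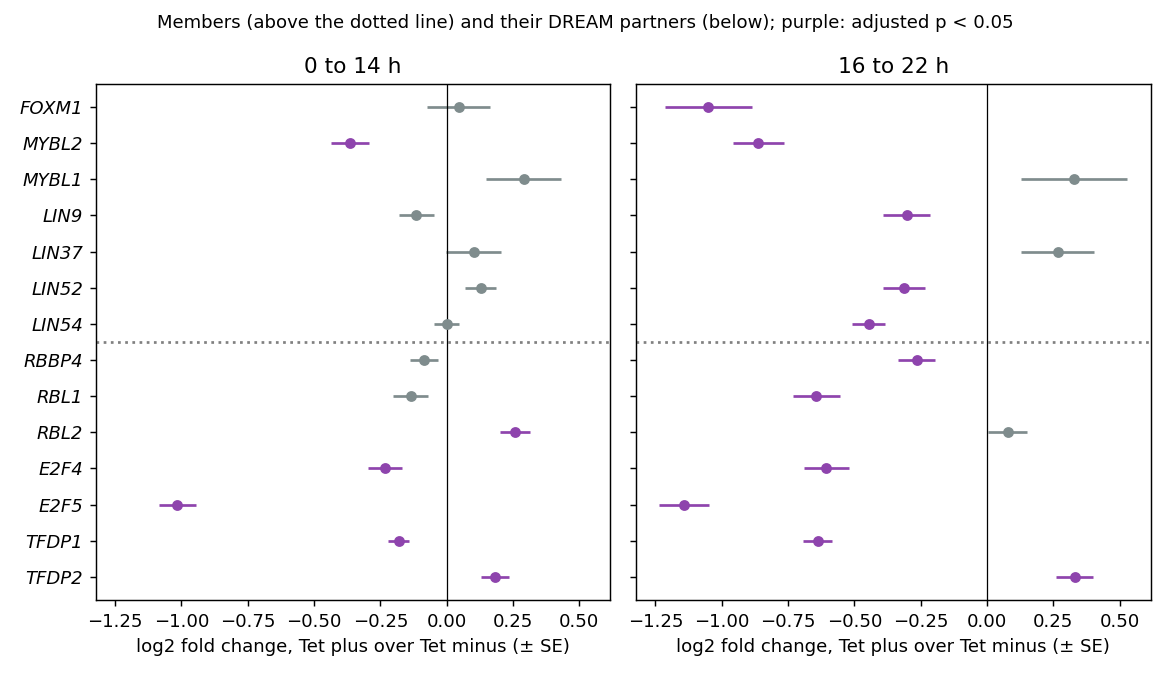
Log2 fold change (Tet plus over Tet minus, points, with bars of ± SE) of the 7 regulators and of the 7 other DREAM subunits, averaged over 0 to 14 h (left) and 16 to 22 h (right), with purple for an adjusted p under 0.05. E2F5 lies lowest in both panels, at -1.02 and -1.14, and FOXM1 is at 0.04 on the left and -1.05 on the right; under ERCC scaling all 14 genes were higher in Tet plus cells at 16 to 22 h.

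Of 9 kinases and cyclins that act on these complexes, 5 were lower and 1 higher in Tet plus cells at 0 to 14 h, where 21.3% of all genes tested were lower and 20.1% higher. The cyclins E, partners of CDK2 at S phase entry, were lowest, with CCNE1 at -0.48 ± 0.0867 (adjusted p = 6.78e-05) and CCNE2 at -0.44 ± 0.0854 (adjusted p = 0.000184). CHEK2 stood at -0.22, CCNB1 at -0.19 and CCNA2 at -0.16. DYRK1A, the kinase of LIN52, was higher at 0.10 ± 0.0379 (adjusted p = 0.0441), a call lost without Tet plus replicate 1 at 3 h and with no filter on low counts; 0 of the 9 passed under ERCC scaling. CDK1 (0.05), CDK2 (-0.06) and PLK1 (-0.19, adjusted p = 0.0674) did not pass. With the replicate block 6 of the 9 were lower, and the share of all genes with it is not given here. At 16 to 22 h 8 were lower, where 26.8% of all genes were, CDK2 the most (-0.93 ± 0.0529, adjusted p = 9.01e-14), and DYRK1A was higher at 0.28 ± 0.0503; under ERCC scaling all 9 were higher.

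The mitotic genes that FOXM1 and MYBL2 activate had arm differences of either sign up to 14 h. The median over 40 such genes was -0.21 at 6 h, where 5 were lower, and -0.21 at 8 h, against 0.21 at 10 h, 0.35 at 12 h, where 6 were higher, and 0.25 at 14 h. Of all genes tested 7.09% passed in either direction at 6 h and 4.19% at 12 h. By the edgeR F-test over the 7 times, 0 of the 40 had an arm difference that depended on time, where 0.0138% of all genes did. Over the 7 times 9 of the 40 were higher and 2 lower in Tet plus cells (median 0.04), where 20.1% of all genes tested were higher and 21.3% lower. CDC25C, a phosphatase that activates CDK1, was the highest at 0.37 ± 0.0537 (adjusted p = 3.19e-06). The 2 lower were HMMR, a spindle protein, at -0.25 and BIRC5 (survivin) at -0.15. The counts move with single libraries: without Tet plus replicate 1 at 6 h, 4 were higher and 4 lower, without Tet plus replicate 2 at 6 h 0 were lower, with no filter on low counts 5 were higher and 2 lower, and with the replicate block 12 were higher and 3 lower. At 16 to 22 h 36 of 40 were lower and 0 higher (median -0.56), where 26.8% of all genes tested were lower and 26.3% higher. Under ERCC scaling 40 of 40 were higher at 16 to 22 h. On the TMM scale the median of the 40 was 0.21 at 16 h, where 8 were higher and 1 lower. Of all genes tested 27% passed in either direction at 16 h. The median was -0.36 at 18 h, -0.72 at 20 h and -1.36 at 22 h.

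The 34 genes of the G1/S list, which E2F factors and DREAM control, were lower in Tet plus cells as a group, with 31 of 34 lower at 0 to 14 h (median -0.40) and 34 of 34 at 16 to 22 h (median -1.07). Of all genes tested 21.3% were lower at 0 to 14 h and 26.8% at 16 to 22 h. The list was chosen with earlier results of these data known. Under ERCC scaling 0 passed at 0 to 14 h (median -0.29) and 34 of 34 were higher at 16 to 22 h. MCM3, a subunit of the replicative helicase, was lowest at 0 to 14 h (-1.13 ± 0.0529, adjusted p = 2.00e-14), followed by ORC1 (-0.63) and MCM2 (-0.57), and TYMS was nearest to 0 of those that passed (-0.16). The later minus the earlier difference passed for 3 of the 34, all lower, where 0.0619% of all genes tested were lower. With the replicate block 14 were lower and with DESeq2 7, and the shares of all genes in these runs are not given here. With RLE factors or no filter on low counts 1 was lower, and 0 with ERCC scaling or only the libraries compared. By the edgeR F-test over the 7 times, 0 of the 34 had an arm difference that depended on time. At 0 to 14 h the MYBL2 difference of -0.36 lay near the median of this list. The FOXM1 difference of 0.04 lay near the medians of the mitotic list (0.04) and of all genes tested (0.01). At 16 to 22 h FOXM1 was at -1.05 and MYBL2 at -0.86. The medians there were -1.07 for the G1/S list and -0.56 for the mitotic list. Whether either gene follows a list was not tested. Among the mitotic list AURKA was the only gene whose arm difference at 12 and 14 h differed from that at 0, 3 and 6 h (0.63 ± 0.120, adjusted p = 0.0388). Of all genes tested 0.00688% were higher in this comparison. With the replicate block 8 of the 40 mitotic genes passed, and 6 with DESeq2, all higher, again without a share of all genes beside them. The count was 0 without Tet minus replicate 1 at 0 h and under ERCC scaling. It was also 0 with RLE factors, no filter on low counts or only the libraries compared.

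**Figure D4:**
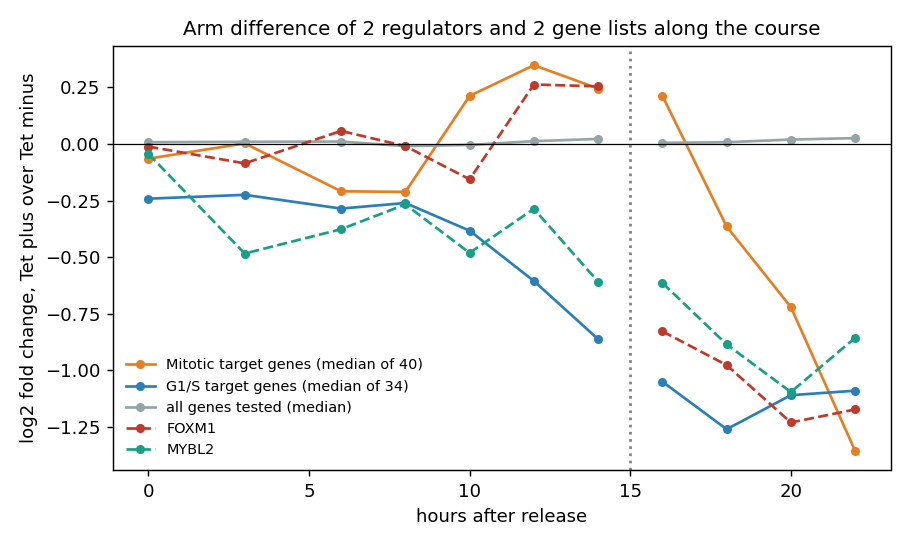
Log2 fold change (Tet plus over Tet minus) against hours after release for FOXM1 and MYBL2 (dashed), for the medians of 40 mitotic and 34 G1/S target genes and for the median of all genes tested (grey). The G1/S median falls to -0.86 at 14 h while the mitotic median is at 0.25. In neither list did any gene pass the edgeR F-test for an arm difference that depends on time from 0 to 14 h. Right of the dotted line, where arms and lane sets coincide, the mitotic median reaches -1.36 at 22 h. The ERCC-scaled medians over 16 to 22 h are 3.82 for the mitotic list, 3.30 for the G1/S list and 4.40 for all genes tested.

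The genes most like FOXM1 in their level over the 14 groups of arm and time from 0 to 14 h, among 10119 genes whose mean log2 CPM reached 3, were TACC3 (Pearson r = 0.89), GTSE1 (0.88), DBF4B (0.88), SRGAP2 (0.88) and PRPSAP1 (0.87). Those most like MYBL2 were PKMYT1 (0.98), DPF1 (0.97), NBEAL2 (0.97), TOP3A (0.97) and POLE (0.97). The groups share libraries and lanes between genes, so these r values are descriptions. FOXM1 and MYBL2 themselves had an r of -0.08 over the 14 groups, and the closest of the 21 combinations of the 7 regulators was LIN9 with LIN54 (0.67).

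Genes next to the regulators were read for the same windows. FOXM1 starts beside RHNO1 (row C12orf32), on the opposite strand, which averaged 24.3 CPM for Tet plus and 45.1 CPM for Tet minus libraries at 16 to 22 h. That difference was -0.89 ± 0.0846 (adjusted p = 1.59e-09), while at 0 to 14 h RHNO1 was at -0.04 ± 0.0620, as FOXM1 was at 0.04. TULP3, another neighbour of FOXM1, was at -0.32 at 16 to 22 h. Values of these neighbours under ERCC scaling were not computed; 14510 of the 14534 genes tested were higher and 0 lower with it at 16 to 22 h. LIN52 starts beside ALDH6A1, which was higher in Tet plus cells at 0 to 14 h (0.41 ± 0.0718, adjusted p = 5.45e-05). It was also higher on the TMM scale at 16 to 22 h (0.23 ± 0.0956, adjusted p = 0.0451), where LIN52 was lower (-0.31). ITFG2 overlaps FOXM1 and THAP9 overlaps LIN54 on the opposite strand, and the strand setting of the counting is not given in the sources used here, so these genes may share counts.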

How the data were processed

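Total RNA depleted of ribosomal RNA was sequenced from directional libraries with ERCC spike-in, per the labels' protocols. The deposited file holds whole-number counts per gene, made by the authors with TopHat2 2.0.5 and HTSeq on hg19, per the submitters' processing notes; for annotation and strand setting nothing is given in the sources used here. From these counts edgeR 4.0.16 (R 4.3.3) gave TMM factors, CPM and a quasi-likelihood fit with a mean for each of 22 groups (22 residual degrees of freedom). ERCC rows (92) were left out of library sizes, and filterByExpr (minimum count 10, minimum total 15) kept 14534 genes. SE is the log2 fold change over the square root of F. Benjamini-Hochberg adjustment ran over all genes tested. Scripts were tested on simulated data. Same-numbered libraries of both arms deviated together at each time (r = 0.263 to 0.833 across 10090 genes), so the numbers pair the arms. The main fit and the runs with a library left out did not use this pairing. Blocked values stand beside the regulator calls they change. Shares of all genes tested are those of the main fit unless ERCC scaling is named. Those with the replicate block or DESeq2 are not given. Alternatives were RLE factors, ERCC scaling, no filter, the replicate block, DESeq2 1.42.0, only the libraries compared and each library left out. The regulators and gene lists were chosen with earlier results of these data known; the text names all regulators, DREAM partners and kinases, from the target lists the 3 lowest and the 1 highest past the threshold at 0 to 14 h and up to 3 mitotic genes by later minus earlier difference, the 5 genes most like FOXM1 or MYBL2, and divergent neighbours. Replicates of a group differed beyond sampling noise (chi-square per gene 8.90 to 51.3).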

Additional observations from a re-analysis of the deposited data

Results flagged for a closer look

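Among genes around the regulators, 5 had an arm difference (Tet plus over Tet minus) at 12 and 14 h that differed from that at 0, 3 and 6 h by edgeR's test of the difference itself. Of all genes tested 0.0619% passed as lower and 0.00688% as higher. CCNE2 had a difference of -1.18 ± 0.206 (SE, adjusted p = 0.0160), with an arm difference of -1.05 at 12 h and -1.46 at 14 h. CDC6, a licensing factor, had -0.80 ± 0.135 (adjusted p = 0.0124). ORC1 had -0.68 ± 0.136 (adjusted p = 0.0487) and MCM10 -0.62 ± 0.123 (adjusted p = 0.0487). AURKA, a mitotic kinase, was above 0, at 0.63 ± 0.120 (adjusted p = 0.0388). With the replicate block the same test passed for more genes. These were 14 G1/S genes, all lower, 8 mitotic genes, all higher, and 3 kinases or cyclins, 1 higher and 2 lower. The shares of all genes above are those of the main fit, and shares with the block or DESeq2 are not given. Neither CCNE2 nor any G1/S gene passed without Tet plus replicate 1 at 12 h, and no mitotic gene without Tet minus replicate 1 at 0 h. All 5 differences lost their call with ERCC scaling. With RLE factors or no filter on low counts 1 G1/S gene and 0 mitotic genes passed. With only the libraries compared 0 genes of these 2 lists passed. In each of these 3 alternatives 1 of the kinases and cyclins was lower. With DESeq2 7 G1/S genes and 3 kinases or cyclins were lower, and 6 mitotic genes were higher.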

How the results depend on the processing

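MYBL2 at 0 to 14 h stayed past the threshold in every alternative run except ERCC scaling (-0.22), and the 5 calls at 16 to 22 h in every one except that ERCC scaling turned them round: FOXM1 3.37, MYBL2 3.55, LIN9 4.08, LIN52 4.07 and LIN54 3.96. ERCC scaling also gave MYBL1 0.14 for the later minus the earlier arm difference, and no filter on low counts gave LIN54 -0.0076 at 0 to 14 h. Counts of regulators passing moved as follows. At 0 to 14 h (1) there were 0 with ERCC scaling and 2 with the replicate block, overall or within each time. At 16 to 22 h (5) there were 6 with the replicate block, overall or within each time, or with only the libraries compared, and 7 with ERCC scaling. At single times up to 14 h (0) there were 1 with RLE factors, no filter, DESeq2 or the block within each time, and 2 with the replicate block. In the course of Tet plus cells (2) there were 0 with ERCC scaling and 1 with only the libraries compared. In that of Tet minus cells (1) there were 0 with ERCC scaling or only the libraries compared, 2 with DESeq2 and 4 with the replicate block. Steps (3) fell to 0 with ERCC scaling or only the libraries compared. With each library left out, counts ranged from 1 to 2 at 0 to 14 h, 5 to 5 at 16 to 22 h, 0 to 1 at single times, 1 to 2 in the course of Tet plus cells, 0 to 3 in that of Tet minus cells and 0 to 3 for steps. FOXM1 ranged from -0.022 to 0.11 and LIN54 from -0.021 to 0.025 at 0 to 14 h. The later minus the earlier difference ranged from -0.45 to 0.052 for MYBL1, -0.26 to 0.064 for LIN9 and -0.031 to 0.35 for LIN37. The cause of these changes was not tested. MYBL1, with 10 to 59 counts per library, is limited by depth.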
